A study of Drosophila melanogaster with 20 samples.

Results

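The introns described here are first introns that have one splice site in common with another first intron. They come from the deposited list of first introns of genes regulated in rasV12FRT82Bscrib1 against FRT82B control eye/antennal discs (EAD). An intron was taken when it was under 10 kb long and had exactly the same start or exactly the same end as at least 1 other distinct intron of the list on its chromosome, but not both ends. This gave 1623 introns. They were 37.0% of the 4384 distinct introns under 10 kb (95% Wilson interval 35.6 to 38.5%) and 34.2% of all 4749 distinct introns (32.8 to 35.5%). Of the annotated first introns under 10 kb of protein-coding transcripts in a later genome build, 41.6% met the same rule (7617 of 18303), so the share in the list was not above that of annotated introns.

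The series comprised RNA libraries of 20 mosaic EAD samples, dissected at the third larval instar and covering 6 genotypes. The 2 genotypes behind the lists had 4 samples each and both carried FRT82B, the recombination site on chromosome arm 3R. Crosses for all samples were kept at 25°C. In rasV12FRT82Bscrib1 discs, clones made by ey-FLP expressed oncogenic RasV12 and were homozygous for scrib1, whereas FRT82B clones carried neither change. Clones and the normal tissue around them were collected together, and the labels name no separate animals for the samples.

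The lists hold genome positions, with no value per sample and no gene name. They therefore show the layout of the listed transcripts and not how strongly any of them was expressed, and there is no replicate error. Which of the listed start sites and splice sites were used in the discs was not measured here. Introns of 1 gene share their source and are not independent of each other.

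The first intron of a transcript lies between its first exon and its second. A gene with several promoters has several first exons, each with its own start site and its own donor (the 5′ splice site), and these are often joined to one common second exon through a single acceptor (the 3′ splice site). Introns that differ in the donor but keep the start site arise from alternative donors inside 1 first exon, and introns that keep the donor differ in the acceptor. The choice of first exon can set the N-terminus of a protein: ets21c and ftz-f1, transcription factor genes among those that the study examined, each make isoforms in this way. First introns of fly genes are rich in regulatory elements, and the study searched them, together with the 5 kb upstream of each start site, for AP-1, Ets21c and Ftz-F1 motifs. A first intron that overlaps that of another transcript enters such a search more than once.

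The list of first introns gives no strand. Each of its 6232 rows was therefore paired with a row of the list of upstream regions, keeping the order of both lists. Among pairings that placed the most introns, the one with the shortest summed first exons was kept. The upstream region gave the start site, the strand and so which end of the intron was the donor. All 6232 rows found a partner and no distinct intron was given both strands. The nearest upstream region in the whole list gave the same strand for 1607 of the 1623 introns (99.0%).

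Most of the shared splice sites were acceptors. Of the 1623 introns, 1254 shared their acceptor (77.3%, 95% Wilson interval 75.2 to 79.2%). Among these, 1107 shared the acceptor alone and 147 shared the acceptor with one intron and the donor with another. The other 369 shared the donor alone (22.7%, 20.8 to 24.8%). In the annotation the acceptor was shared by 74.4% of introns of this kind. Introns with a common end were gathered into 806 families, each made of all distinct introns that used 1 acceptor or 1 donor, including partners of 10 kb or more. There were 548 acceptor families and 258 donor families.

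Most families held 2 introns, and larger ones were found mainly among acceptor families. Among acceptor families 385 of 548 held 2 introns (70.3%, 66.3 to 73.9%), 105 held 3, 39 held 4, and 19 held between 5 and 11. Among donor families 237 of 258 held 2 introns (91.9%, 87.9 to 94.6%), and 1 family held 5, the most. The intervals of the shares with 2 introns did not overlap. No test was made of this difference, as families of 1 gene are not independent. Partners of 10 kb or more, which are too long to be counted among the 1623, were present in 75 acceptor families and 27 donor families. The longest intron inside the limit was 9980 bp and the shortest such partner outside it was 10015 bp.

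Several start sites lay behind most shared acceptors. Of the 548 acceptor families, 398 joined transcripts from more than 1 start site (72.6%, 68.7 to 76.2%). The other 150 had 1 start site and so differed in the donor alone. The share with several start sites in annotated families was 69.6%. Start sites at any distance were counted as different, down to a span of 1 bp, so not all 398 need have separate promoters. With start sites at least 500 bp apart the share was 56.4%. Of the 398 families, 288 had first exons that did not overlap at all (72.4%, 67.8 to 76.5%), whereas in 110 at least 1 pair of first exons overlapped. A start site lay inside the first intron of another transcript of the same family in 358 of the 398 (89.9%, 86.6 to 92.5%). Separate first exons (288 families) force this layout, since the exon nearer the acceptor must lie inside the longer intron. Donor families were the reverse of acceptor families, with 1 start site in 222 of 258 (86.0%, 81.3 to 89.7%).

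The acceptor with the most alternatives was on 3R. It lay at the end of 11 first introns on the plus strand that all ended at position 108395 (dm3, counted from 1, as are all positions here), and the longest of them was chr3R:106079-108395. Their lengths were 2317, 2305, 2243, 2204, 1851, 802, 758, 743, 670, 359 and 191 bp. They fell into an upstream set of 5 introns from 1851 to 2317 bp and a downstream set of 6 from 191 to 802 bp, with the widest gap between neighbouring donors, 1049 bp, between the sets. The 11 introns began from 11 start sites.

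On X, 7 first introns ended at position 1737724 of the plus strand. The 3 that were under 10 kb measured 113, 808 and 5228 bp. Their 4 partners measured 11632, 16271, 17710 and 19419 bp, so that the most distant of the 8 start sites was far from the acceptor while the nearest first exon sat almost beside it. An acceptor on 2L (plus strand, position 3772460) also served 7 first introns, of 144 to 1229 bp, but these were spread over about 1 kb and came from 5 start sites. Chromosome 4, the small and largely heterochromatic chromosome, held a family of the same size on the minus strand at position 325805. Its 7 introns measured 471 to 1261 bp and came from 4 start sites.

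Further families also joined distant first exons. On 2R, the largest family was made of 6 introns that met at position 8737734 of the minus strand, from 546 to 11521 bp long, each with a start site of its own. No family on 3L held more than 4 introns, and the most widely spread of these was at position 5637186 of the plus strand, of 371, 1752, 7568 and 12605 bp. On 3R, 6 introns at position 13503901 of the minus strand ran from 473 to 4280 bp, and the donors of the 2 longest were only 2 bp apart. The widest gap of all was on 3L, where an intron of 128 bp (chr3L:7749955-7750082) and 1 of 106117 bp shared the acceptor, with donors 105989 bp apart.

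The distance between alternative donors followed the layout of the start sites. In families whose first exons did not overlap, neighbouring donors were a median of 2117 bp apart (quartiles 848 and 5037 bp, n = 377 spacings), and 270 of 377 spacings were 1 kb or more (71.6%, 66.9 to 75.9%). Where at least 1 pair of first exons overlapped the median was 192 bp (55 and 521.5 bp, n = 247). With 1 start site it was 53.5 bp (19.75 and 138.75 bp, n = 180), and 1 spacing of 180 reached 1 kb. Spacings of 30 bp or less made up 1 of 377, 43 of 247 (17.4%) and 70 of 180 (38.9%) in these 3 classes. The order of the classes is in part built in, since donors at the ends of separate exons cannot be closer than an exon.

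The start sites themselves were spread over a median of 1972 bp per family (quartiles 639 and 4795.5 bp, n = 398). With separate first exons the spread was 2809 bp (1131 and 6323 bp, n = 288), against 501.5 bp (93.5 and 2107 bp, n = 110) where first exons overlapped. The intervals of the medians were 2255 to 3284 bp and 323 to 813 bp, and they did not overlap. This difference is in part built in, since start sites of separate exons cannot be closer than an exon.

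Separate first exons came with introns of very unequal length within a family. The longest intron of such a family was a median of 4.93 times as long as the shortest, with a median of 659 bp for the shortest intron and 4047 bp for the longest. The ratio was 2.06 in families with overlapping first exons, 1.32 in donor families and 1.09 in acceptor families with 1 start site. The high ratio for separate first exons is in part built in, since the longest intron must contain the other exons and introns. First exons in front of the shortest introns had a median of 168 bp (95% interval of the median 146 to 200 bp), against 257 bp (216 to 288 bp) for those in front of the longest, and they were not compared within families.

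Families with 1 start site and several donors stayed compact. No family of this class held more than 4 introns, and the 3 most widely spread sets of 4 were as follows. At position 11189976 on the minus strand of 3L the introns measured 363, 524, 625 and 629 bp. At 9054141 on the minus strand of 2R they measured 1153, 1189, 1250 and 1267 bp. At 7032178 on the minus strand of 2L they measured 59, 67, 133 and 144 bp, the shortest of the 3 sets. The narrowest spacing in the class was 2 bp, between introns of 3723 and 3725 bp that shared position 2407824 on X. The widest was 1236 bp, between introns of 8905 and 10141 bp at position 22246738 on X.

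**Figure D1:**
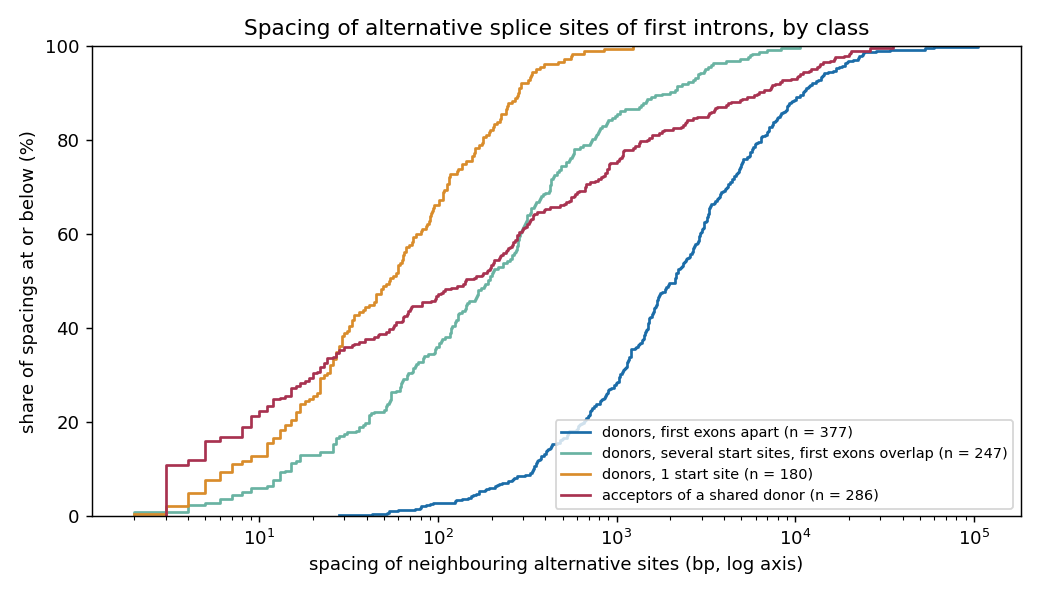
Cumulative share of spacings (y axis, %) at or below a given distance between neighbouring alternative splice sites (x axis, bp, log axis), with 1 line for each of 3 classes of alternative donors and 1 for alternative acceptors. The medians rise from 53.5 bp with 1 start site to 192 bp with overlapping first exons and 2117 bp with separate first exons, and the line of alternative acceptors (median 143 bp) climbs steeply at 3 bp and then runs flatter than the others.

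Alternative acceptors of 1 donor ranged from adjacent sites to sites many kb apart. Neighbouring acceptors lay 143 bp apart at the median (quartiles 13.25 and 914.25 bp, range 3 to 35308 bp, n = 286). Spacings of 30 bp or less made up 103 of the 286 (36.0%, 30.7 to 41.7%), and spacings of 1 kb or more made up 71 (24.8%, 20.2 to 30.1%). The largest donor family, on the minus strand of X, left from position 11780988 and reached 5 acceptors through introns of 104, 1674, 1851, 3334 and 5053 bp. In the widest family, on the plus strand of 3L at 914219, the introns measured 1420 and 36728 bp. A donor on the minus strand of 3R at 22894865 reached 4 acceptors at 1648, 1944, 2259 and 2478 bp, which lay at similar distances from one another.

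The commonest spacing of alternative acceptors was 3 bp. Acceptors this close are known as tandem acceptors, of which the NAGNAG type is the best known, and in coding sequence their use adds or removes 1 codon. A spacing of 3 bp was found 31 times in 286 (10.8%, 7.74 to 15.0%), ahead of 5 bp (12 times), 9 bp (7 times) and 8 bp (6 times). Neighbouring donors of 1 start site were 3 bp apart in 3 of 180 cases (1.67%, 0.568 to 4.78%), and their commonest spacing was 22 bp, found 6 times. The intervals of these shares did not overlap. In the annotation the shares were 11.1% (168 of 1516) for acceptors and 13 of 864 for donors of 1 start site.

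The 31 spacings belonged to 30 families and to 29 distinct pairs of acceptors. Of the 30 families, 27 had 1 start site and 28 were made of exactly 2 introns. They were found on every large arm, with 13 of 56 donor families on 3R, 7 of 59 on 3L, 4 of 45 on X, 3 of 51 on 2L and 2 of 41 on 2R. The arms were not compared by a test. A further 1 was on XHet, heterochromatic sequence of X that is kept apart from the arm. The shortest intron of these families had a median of 272.5 bp (quartiles 66.5 and 2478 bp, range 49 to 8210 bp), and it was 100 bp or shorter in 12 of 30 (95% Wilson interval 24.6 to 57.7%). At position 18826824 on the plus strand of 2L, 1 donor reached acceptors at 78, 81, 93 and 174 bp. At position 8468441 on the plus strand of X, 3 acceptors stood in a row at 940, 943 and 946 bp, and the fourth was at 9133 bp. Tandem acceptors were thus present at the ends of both very short and very long first introns: on 2L introns of 49 and 52 bp (chr2L:5967566-5967614 and chr2L:5967563-5967614) differed by 3 bp, as did introns of 8210 and 8213 bp on 3R (chr3R:19647469-19655678 and chr3R:19647469-19655681).

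Spacings that were multiples of 3 bp were more frequent among alternative acceptors than among alternative donors of all classes together. They made up 127 of 286 acceptor spacings (44.4%, 38.8 to 50.2%) and 272 of 804 donor spacings (33.8%, 30.6 to 37.2%). For donors of 1 start site alone they made up 63 of 180 (35.0%, 28.4 to 42.2%), and that interval overlapped the one for acceptors. Up to 30 bp the shares were 56.3% for acceptors (58 of 103, 46.7 to 65.5%) and 27.1% for donors of 1 start site (19 of 70, 18.1 to 38.5%). The 58 included the 31 spacings of exactly 3 bp. From 31 to 300 bp the shares were 31.9% (23 of 72, 22.3 to 43.4%) and 40.6% (39 of 96, 31.3 to 50.6%), and these intervals overlapped. Over 300 bp the shares were 41.4% (46 of 111, 32.7 to 50.7%) and 35.7% (5 of 14, 16.3 to 61.2%), again with overlapping intervals. Without the spacings of exactly 3 bp, acceptor spacings were multiples of 3 in 96 of 255 cases (37.6%, 31.9 to 43.7%), and that interval overlapped the one for all donors. Annotated acceptors gave 44.4% and annotated donors of 1 start site 37.5%.

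**Figure D2:**
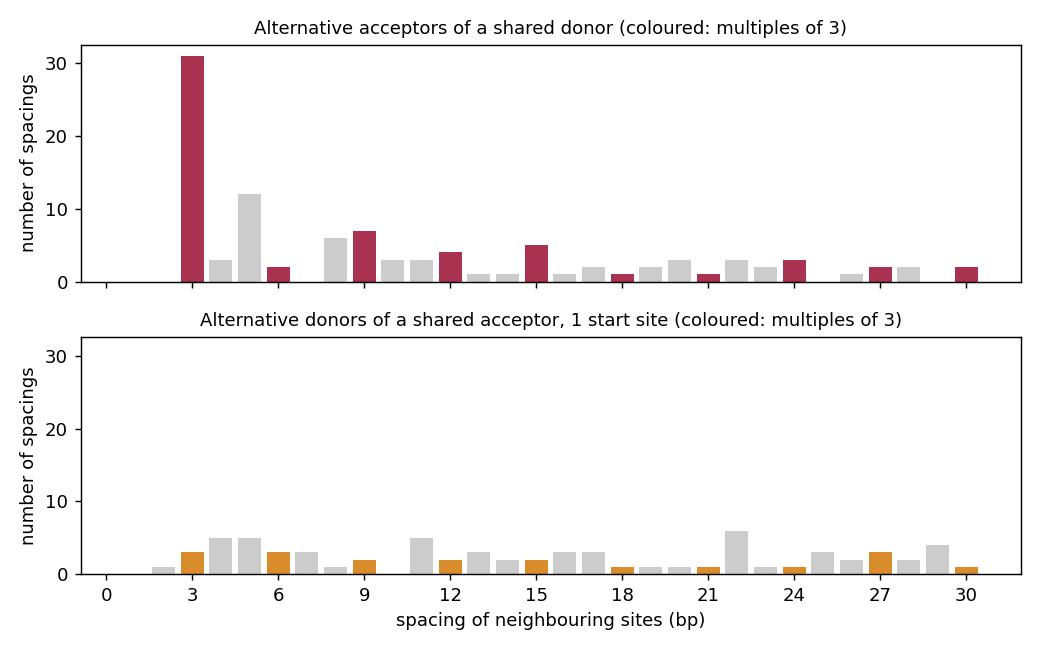
Number of neighbouring splice sites (y axis) at each spacing up to 30 bp (x axis), for alternative acceptors of a shared donor (top) and alternative donors of a shared acceptor with 1 start site (bottom), with multiples of 3 coloured. Acceptors have a single tall bar of 31 at 3 bp, while no donor spacing was found more than 6 times.

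In some places alternative donors and alternative acceptors were combined. The 147 introns that shared each end with a different intron belong to such places, and 8 pairs of donors each reached the same 2 acceptors. On the plus strand of 3R, donors 5 bp apart were both listed with acceptors 3 bp apart. The introns measured 66 and 69 bp from the first donor (chr3R:4547279-4547344 and chr3R:4547279-4547347). From the second they measured 61 and 64 bp (chr3R:4547284-4547344 and chr3R:4547284-4547347). On the minus strand of the same arm, introns of 2704 and 2707 bp and of 2726 and 2729 bp had donors at 7276788 and 7276810. All 4 combinations were therefore listed in both places.

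Introns with a shared splice site were long. Their median length was 1028 bp (quartiles 341 and 2789.5 bp, 95% interval of the median 941 to 1153 bp), against 104 bp (62 and 749 bp, 92 to 119 bp) for the 2761 other distinct introns under 10 kb. Introns of 100 bp or less, a common size for fly introns, made up 12.1% of the former (197 of 1623, 10.6 to 13.8%) and 49.5% of the latter (1368 of 2761, 47.7 to 51.4%). Introns of 1 kb or more made up 50.7% and 21.3%. The same order held in the annotation, with medians of 782 and 74 bp. The length difference was not tested, because introns of a family overlap and are not independent.

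Length varied with the end that was shared. Introns that shared the acceptor alone had a median of 1173 bp (quartiles 404.5 and 2969 bp, interval of the median 1025 to 1291 bp). Those that shared the donor alone were shorter, at 635 bp (132 and 1911 bp, interval 521 to 813 bp), and 20.6% of them were 100 bp or less. The 147 that shared each end with a different intron had a median of 1420 bp (540.5 and 3377.5 bp, interval 978 to 1947 bp), whose interval overlapped that of introns sharing the acceptor alone. All 3 medians were above the 104 bp of introns that shared no end.

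**Figure D3:**
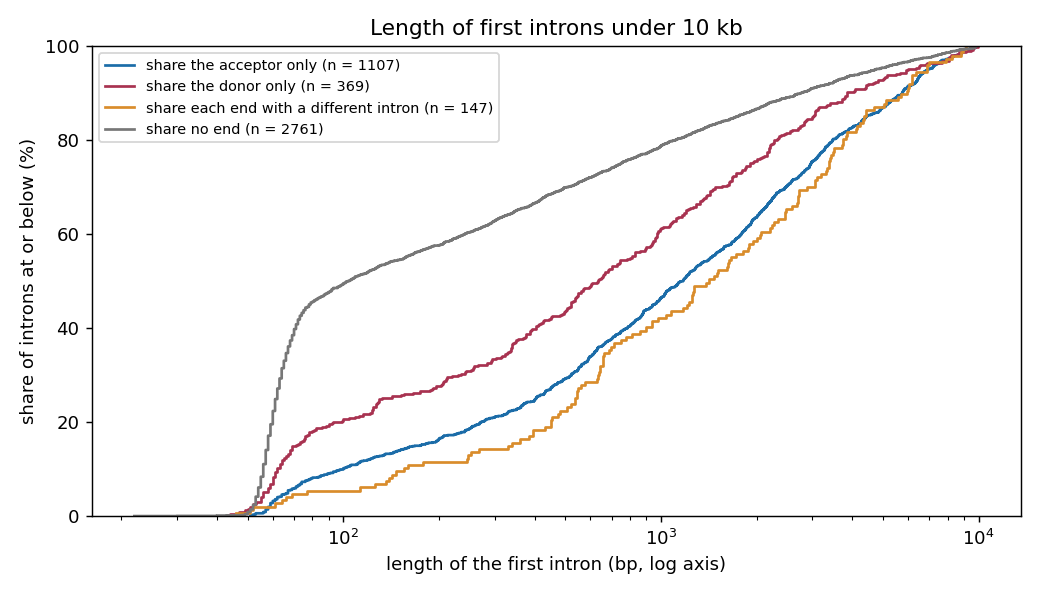
Cumulative share of distinct first introns under 10 kb (y axis, %) at or below a given length (x axis, bp, log axis), by the splice site they share. Introns that share no end (grey) rise to 49.5% by 100 bp, whereas the curves of introns that share the acceptor, the donor or both reach 10.2%, 20.6% and 5.44% there.

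The first exons in front of these introns were shorter than elsewhere in the list. Their median length was 182 bp (quartiles 98 and 318 bp, interval of the median 172 to 191 bp), against 237 bp (129.5 and 446 bp, interval 227 to 246 bp) for the other introns under 10 kb. A first exon was counted once for each start site of a distinct intron. The pairing of rows favoured short first exons where it had a choice, and the part of this in the difference was not tested.

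Repeated rows were collapsed before ends were compared. Of the 1623 introns, 1331 stood in a single row of the list (82.0%, 80.1 to 83.8%), as did 2271 of the 2761 others (82.3%). The most rows for 1 intron was 11. An intron that was reached from more than 1 start site with both splice sites unchanged was uncommon in either set, with 40 of 1623 (2.46%, 1.82 to 3.34%) and 95 of 2761 (3.44%).

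Shared splice sites meant that the same bases entered the lists several times. Laid end to end, the 1623 introns added up to 3.15 Mb, but they covered 1.82 Mb of the genome, so that each base was listed 1.73 times on average. Counting repeated rows too, the factor was 2.37. For the other introns under 10 kb the corresponding factors were 1.01 and 1.69. Introns with a common end must overlap, so the contrast between 1.73 and 1.01 is largely set by the choice of introns. Some of the sequence was also listed a second time as upstream region. Of the 1254 introns with a shared acceptor, 438 held a start site of their own family (34.9%, 32.3 to 37.6%), and 30.2% of the bases of the 1254 lay inside the 5 kb upstream region of another transcript of the family. The introns that held such a start site were long, with a median of 2559.5 bp.

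Upstream regions of any transcript in the list overlapped 884 of the 1623 introns (54.5%, 52.0 to 56.9%) and covered 44.6% of their bases. For the other introns under 10 kb these values were 1062 of 2761 (38.5%) and 23.5% of bases. The 2 sets also differed in length, and the part of length in this difference was not tested.

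Overlapping first introns on 1 strand were joined into 3518 loci, which stand in for genes here. Introns with a shared splice site were found in 650 of them (18.5%, 17.2 to 19.8%). Of the 650 loci, 378 held 2 such introns, 125 held 3, 64 held 4, 32 held 5 or more and 51 held 1, whose partners were 10 kb or longer. Acceptor and donor families occurred together in 114 loci (17.5%, 14.8 to 20.7%). Several start sites were found in 416 of the 650 loci (64.0%, 60.2 to 67.6%) and in 105 of 2677 loci without one whose introns were all under 10 kb (3.92%, 3.25 to 4.73%). The rule itself asks for at least 2 introns in a locus, and only 24 of the 2677 others held more than 1, so this contrast is largely set by the choice of introns.

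No chromosome arm held more or fewer of the loci than the rest of the list at an adjusted P of 0.05, with loci that held introns of 10 kb or more but no shared splice site under 10 kb left out of the rest. Of the 647 loci with a shared splice site on the 6 arms, 17.0% lay on 2R (14.3 to 20.1%), against 20.7% of 2670 loci without one (19.3 to 22.3%). This was the lowest odds ratio, 0.782, and it did not pass Fisher's exact test after adjustment over the 6 arms (two-sided, P = 0.0328, adjusted P = 0.197). Counted over introns in place of loci it did (odds ratio 0.760, adjusted P = 0.00444), but introns of a locus are not independent. On 3L the shares were 22.9% and 20.2% (odds ratio 1.17, adjusted P = 0.433), and on X 16.8% and 14.9% (odds ratio 1.16, adjusted P = 0.446). The odds ratios were 1.05 on 2L, 0.905 on 3R and 1.09 on chromosome 4, with adjusted P values of 0.742, 0.532 and 0.799. Loci are not replicates, and these P values describe the lists alone.

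**Figure D4:**
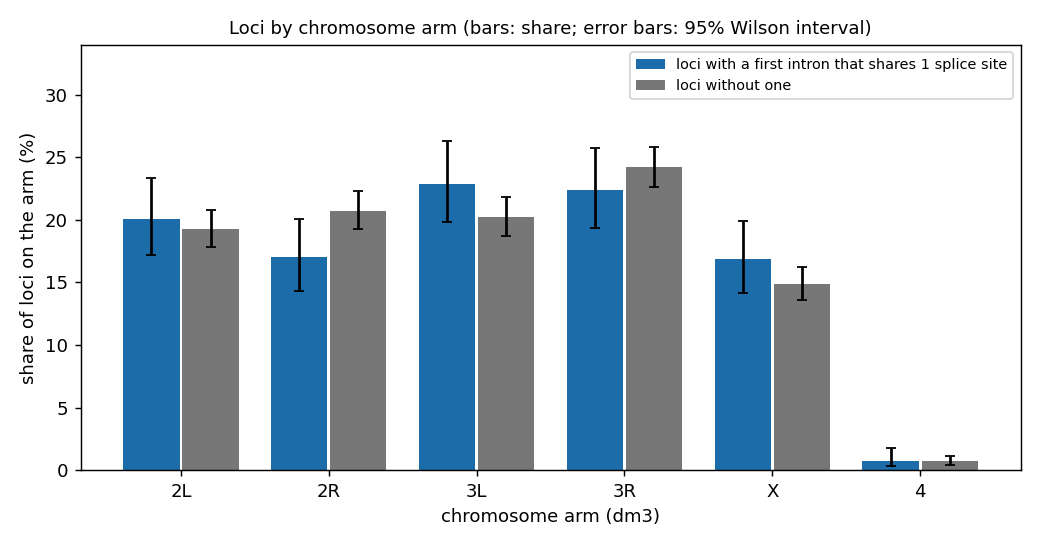
Share of loci (y axis, %) on each chromosome arm (x axis, dm3) for 647 loci with a first intron that shares 1 splice site (blue) and 2670 loci without one whose introns were all under 10 kb (grey), with 95% Wilson intervals as error bars. The intervals of the blue and grey bars overlap on all 6 arms, and the bars are farthest apart on 2R, at 17.0% and 20.7%.

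Counted by intron, 2R had the smallest share of its first introns in this class and chromosome 4 the largest. Introns with a shared splice site made up 270 of 845 distinct introns under 10 kb on 2R (32.0%, 28.9 to 35.2%) and 18 of 38 on chromosome 4 (47.4%, 32.5 to 62.7%). The other arms lay between, with 344 on 2L, 343 on 3L, 362 on 3R and 280 on X. The interval for chromosome 4 was wide and took in the shares of X (40.5%) and 2L (39.7%). Median lengths by arm ran from 558 bp on chromosome 4 to 1202.5 bp on 2R. The plus strand carried 755 of the 1623 introns (46.5%, 44.1 to 49.0%).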

How the data were processed

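RNA from 20 samples of mosaic EAD was sequenced. The authors mapped reads with Tophat to BDGP R5/dm3 with Ensembl 75 annotation and quantified genes with Cufflinks and DESeq2. Per the labels, CASAVA was used before mapping. The deposited lists hold genome positions only (other values), namely regions 5 kb upstream of start sites and first introns of regulated genes. The authors state 2 sets of cut-offs for differentially expressed genes. They tie the scanned regions to all genes that they count as deregulated in these tumors, a number obtained with the milder set. The stricter set is given in the methods for exported gene lists. The cut-offs were not checked against the deposited lists here. How transcripts were chosen is not given in the sources used here.

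Distinct introns were compared by exact ends. Rows of both lists were paired in order (start site within 20 kb before the intron), and 60.3% of intron rows (3758 of 6232) then had exon and intron lengths of an annotated transcript of the same arm and strand, against at most 97 rows with intron lengths shifted by 1 or 2 bp. Lengths and shared ends of annotated introns came from BDGP6.54 (Ensembl 115), and no position was compared between builds. Pairing, strand, start sites, families and the choice of introns were tested on lists made from annotated transcripts. The transcripts stood in random order in those lists, which need not be the order of the deposited ones. Shares carry 95% Wilson intervals and cover counting error only. Fisher's exact test, two-sided, was used for the arms, with Benjamini-Hochberg adjustment over 6.

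Families described by position were the 3 with the most introns in each class, those with the widest and narrowest spacing, and the largest on each arm. The 3-bp pairs of 49 and 8210 bp and the donor pairs with common acceptors were picked after their values were seen. The introns and lists were chosen with earlier results of these data known. Gene names, splice site letters and motifs in dm3, and depth per sample, were not analysed here. Software was matplotlib 3.10.9, scipy 1.17.1, numpy 2.4.6 and Python 3.11.15.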

Additional observations from a re-analysis of the deposited data

How the results depend on the processing

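No paired analysis was possible because the lists hold no value per sample, and leaving out replicates was not run for the same reason. The number of introns with a shared splice site, 1623, was 1476 without introns that share both ends with different rows, 1562 with partners under 10 kb only, 1631 with ends within 5 bp taken as shared, 1824 without a length limit and 2109 over all rows. The share with a shared acceptor, 77.3%, was 68.0% when families were counted. The share of acceptor families with several start sites, 72.6%, was 68.1% with start sites at least 50 bp apart and 56.4% with 500 bp, stricter rules by construction. The median length, 1028 bp, was 1333.5 bp with 1 value per family and 819.5 bp under 5 kb. The median spacing of donors, 426 bp over all acceptor families, was 739.5 bp over all pairs of a family and 656 bp in families of exactly 2 introns. The share of acceptors 3 bp apart, 10.8%, was 10.7% in families whose introns are each in 1 row and 11.4% in families with 1 start site, alternatives chosen after seeing the data. On 2R the odds ratio of 0.782 was 0.760 with introns in place of loci, where it passed the test (Fisher's exact test, adjusted P = 0.00444), and 0.790 with loci of longer introns added to the others (adjusted P = 0.231). Introns of a locus are not independent, so that P is too small. Of 31 alternatives, 23 kept their direction and side of the threshold or stayed within the spread. The lists give no depth, so expression limits could not be set.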
